A study of Mus musculus with 6 samples.

Results

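The genes examined here encode matrix proteoglycans, 9 in all among the 20637 genes listed for each library: Bgn (biglycan), Dcn (decorin), Lum (lumican), Fmod (fibromodulin), Ogn (osteoglycin, also called mimecan), Prelp, Aspn (asporin), Podn (podocan) and Vcan (versican). They were chosen by gene symbol, as a gene family, and each symbol matched 1 row in every deposited table. Polyadenylated RNA of the whole uterus was sequenced at postnatal day 21, in 3 libraries of Nat10 f/f females (floxed controls) and 3 of Nat10 d/d females (Nat10-deleted). Nat10 encodes an acetyltransferase that modifies cytidines in RNA, and the comparison asks which transcripts differ in the uterus once it is deleted. Which Cre driver was used, which cells carry the deletion, the strain, and whether a library came from 1 mouse or a pool are not in the labels, so p-values measure the spread between these libraries, which may be technical.

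Small leucine-rich proteoglycans are secreted core proteins built from leucine-rich repeats, most of them carrying glycosaminoglycan chains. They bind collagen, set the diameter and spacing of its fibrils and hold growth factors such as TGF-beta in the matrix. Versican belongs to another family, the large proteoglycans that bind hyaluronan and give loose, hydrated connective tissue. In the uterus these genes are mainly known from stromal fibroblasts and from the connective tissue of the myometrium.

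Values are FPKM, which divide by transcript length and sequencing depth, so levels can be compared between genes. Relative depth, estimated from the lowest values, differed by 1.259 times between the deepest and the shallowest library, and absolute depth is unknown. Nat10 had 13.2 ± 3.2 FPKM (SD, n = 3) in controls against 5.45 ± 0.184 after deletion, and its groups did not overlap. Its log2 change was -1.11 with a limma adjusted p of 0.669, and no gene tested had a smaller adjusted p. Markers of stroma, smooth muscle and epithelium fixed for the check (15, 10 and 12 genes) all passed the filter for testing. Of 9 ovary markers, Fshr, Zp3, Oosp1 and Cyp17a1 were listed at 0 in every library and 4 passed the filter, and the list summed to between 9.88 and 16.5 FPKM. Of 5 skeletal muscle markers, Myh4 and Myh1 were listed at 0 in every library and 2 passed the filter, with a sum of 41.2 to 59.2 FPKM. Blood markers were uneven, with a sum of 5580.6, 2628.7 and 851.4 FPKM in controls and 709.4, 1722.8 and 1111.4 after deletion, and all 5 had a lower mean (median log2 change -0.98). The 5 fat markers summed to 34.0, 1.27 and 3.97 FPKM in controls and 10.9, 2.72 and 0.146 after deletion. Sums in any library were 61.1 to 77.7 FPKM for mesothelium, 217.0 to 256.2 for pericytes, 98.3 to 151.4 for leukocytes and 1.61 to 7.0 for oviduct and ciliated cells. The part of blood, fat and these other cells in the values below was not tested. Nat10-deleted replicate 2 stood apart on the first principal component (48.4% of the variance), with a score of -40.2 against -4.6 to 6.7 in controls and 11.3 and 25.1 in the other deleted libraries. Proliferation genes marked the same library: the FPKM of 12 such genes summed to 225.8 there, to 22.2 and 11.2 in Nat10-deleted replicates 1 and 3, and to 94.8, 24.7 and 60.5 in control replicates 1, 2 and 3.

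Promoter sequence was available for 7 of the 9 genes in the RefSeq table (GRCm38.p6). The 100 bases before the annotated start are shown for 3 pairs whose values are compared below. Bgn (chrX:73483501-73483600, plus strand) and Fmod (chr1:134037154-134037253, plus strand) are the pair whose groups did not overlap. Aspn (chr13:49544343-49544442, plus strand) and Ogn (chr13:49607915-49608014, plus strand) lie in 1 cluster and varied most alike across the libraries. The RefSeq start of Ogn lies before its GENCODE gene start at 49608046, so the annotations disagree on where its window should end. Prelp (chr1:133921402-133921501, minus strand) and Vcan (chr13:89742513-89742612, minus strand) diverged in Nat10-deleted replicate 2. Each runs 5′ to 3′ on the strand of the gene, and capitals mark matches to the CCAAT box or the GC box on either strand.
Bgn: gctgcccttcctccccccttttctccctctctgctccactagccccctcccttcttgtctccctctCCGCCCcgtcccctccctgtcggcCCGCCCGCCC
Fmod: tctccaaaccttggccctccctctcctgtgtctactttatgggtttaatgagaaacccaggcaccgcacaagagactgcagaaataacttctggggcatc
Aspn: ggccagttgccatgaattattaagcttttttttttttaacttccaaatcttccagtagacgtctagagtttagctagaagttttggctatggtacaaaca
Ogn: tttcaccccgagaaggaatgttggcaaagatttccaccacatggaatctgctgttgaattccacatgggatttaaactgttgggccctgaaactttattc
Prelp: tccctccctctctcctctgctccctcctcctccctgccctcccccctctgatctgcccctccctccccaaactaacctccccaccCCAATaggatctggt
Vcan: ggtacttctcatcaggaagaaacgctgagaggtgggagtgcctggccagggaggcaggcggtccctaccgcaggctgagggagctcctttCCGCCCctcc

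The motifs of the TATA box (TATAAA), of the CCAAT box and of the GC box (GGGCGG) were searched on both strands. Among the 6 sequences shown, the GC box match was found 3 times upstream of Bgn, where the last 2 overlap, and 1 time upstream of Vcan, and 24.7% of the 32851 RefSeq promoter windows of this length held it. The CCAAT box was found 1 time, upstream of Prelp, against 18.9% of windows. Of the Podn windows, which are not shown, 1 held a GC box match. The TATA box letters were in none of the 6 sequences, against 5.6% of windows. The Fmod, Aspn and Ogn windows held none of these motifs and had a GC content of 50%, 35% and 43%, against 71% for Bgn and a median of 55% over all windows.

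Decorin was by far the most abundant of these transcripts. In controls Dcn had 1071.1 ± 41 FPKM (SD, n = 3), more than 99.4% of the 12640 genes tested. Bgn followed at 197 ± 20.5 FPKM and Lum at 151 ± 17.5. Ogn (63.6 ± 13.7) and Prelp (42.5 ± 8.02) were intermediate. Vcan (14.2 ± 1.59), Fmod (10.1 ± 0.777), Aspn (10.1 ± 1.26) and Podn (5.07 ± 0.71) were lowest. Neighbours in this order did not overlap among the control libraries, with the exception of Fmod and Aspn. Together the 9 genes made up 0.215% to 0.325% of all listed FPKM in a library. All 9 had at least 1 FPKM in all 6 libraries, so the filter on low values removed none of them.

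**Figure D1:**
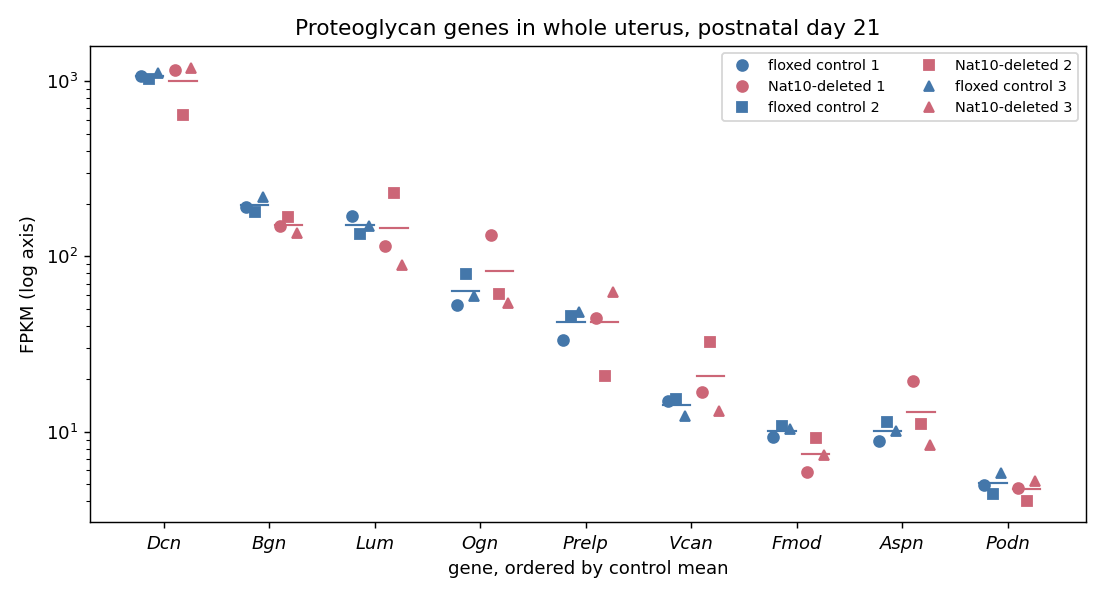
FPKM of the 9 proteoglycan genes (vertical log axis) in 3 floxed control libraries (blue) and 3 Nat10-deleted libraries (red), with marker shape giving the replicate number and lines giving group means. Blue and red points separate for Bgn and Fmod, and Nat10-deleted replicate 2 lies lowest for Dcn and Prelp and highest for Lum and Vcan.

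When deleted uteri were compared with controls, none of the 9 genes had an adjusted p under 0.05 (limma on log2(FPKM + 1), Benjamini-Hochberg over 12640 genes), nor did any other gene (0.0% of those tested). Their adjusted p-values from limma ran from 0.922 to 0.989. Nat10, the deleted gene itself, did not pass either (limma adjusted p 0.669). A gene that did not pass was therefore not shown to be unchanged. At an unadjusted p under 0.05 there were 2 of the 9, Bgn and Fmod, both lower in deleted uteri, and 4.98% of all genes tested reached that level (2.3% as lower and 2.68% as higher, a split of 291 to 339 that became 414 to 259 after quantile normalization). The same pair were the only members whose groups did not overlap, against 10.7% of all genes tested in either direction (4.6% as lower and 6.12% as higher). The median log2 change of the 9 genes was -0.11, with 3 higher and 6 lower. Over all genes tested it was 0.03, with 7154 higher and 5486 lower.

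**Figure D2:**
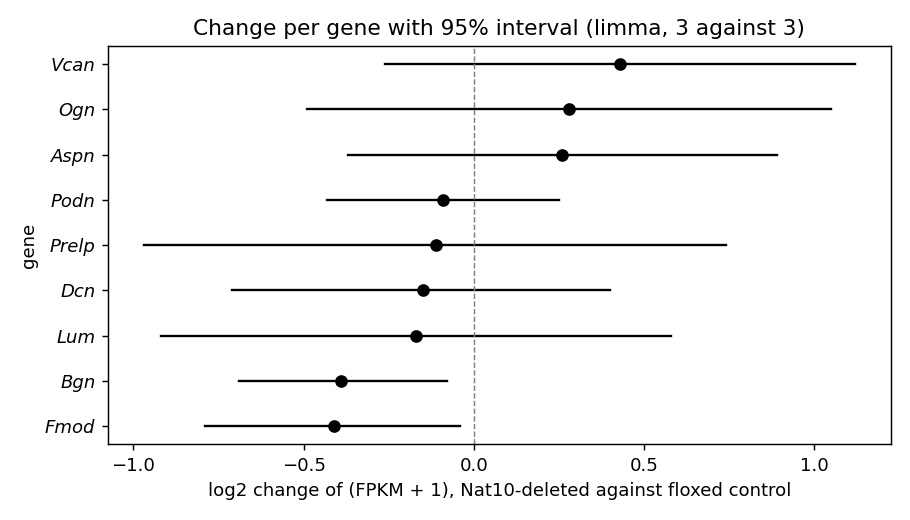
Change of each gene as log2(FPKM + 1), Nat10-deleted against floxed control (horizontal axis, points), with the unadjusted 95% interval from limma (lines) over 3 against 3 libraries. The intervals of Bgn (-0.69 to -0.08) and Fmod (-0.79 to -0.04) lie below 0 and the other 7 span it.

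Bgn, Dcn and Aspn form the class of small leucine-rich proteoglycans closest to biglycan. Biglycan carries chondroitin or dermatan sulfate chains and binds collagen and TGF-beta. Bgn (ENSMUSG00000031375, chromosome X, 73483602 to 73495933, GRCm38) had 191.6, 179.7 and 219.7 FPKM in control replicates 1, 2 and 3 and 148.3, 168.0 and 135.3 in deleted replicates 1, 2 and 3. Every deleted library was below every control. The deleted mean, 150.5 ± 16.5 (SD, n = 3), was 76.4% of the control mean. The log2 change was -0.39 (SE 0.13; limma unadjusted p 0.0201, adjusted p 0.922). An exact two-sided permutation test gave p = 0.1, the smallest that 3 against 3 allows.

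Decorin, which wraps collagen fibrils and limits their lateral growth, did not follow biglycan. Dcn (ENSMUSG00000019929, chromosome 10, 97479609 to 97518143) had 1065.5, 1033.1 and 1114.6 FPKM in controls and 1159.5, 645.7 and 1197.0 in deleted uteri. Deleted replicates 1 and 3 were above all controls and replicate 2 was below them, so the group means, 1071.1 ± 41 and 1000.8 ± 308 (SD, n = 3), differed by less than the spread among deleted libraries. Its change on the log2 scale was -0.15 (95% interval -0.71 to 0.4; limma adjusted p 0.97), and without deleted replicate 2 it was 0.14. It was -0.28 without deleted replicate 1, -0.31 without deleted replicate 3, -0.25 after quantile normalization, 0.08 with array quality weights and -0.29 with the GC content and length correction. The ratio of Dcn to Bgn was 5.56, 5.75 and 5.07 in controls and 7.82, 3.84 and 8.85 in deleted replicates 1, 2 and 3. All 3 deleted ratios lay outside the control range, in both directions.

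Asporin resembles biglycan and decorin in its core, carries a run of aspartates and binds calcium and TGF-beta. Aspn (ENSMUSG00000021388, chromosome 13, 49544443 to 49567565) had 8.82, 11.3 and 10.1 FPKM in controls and 19.4, 11.1 and 8.37 in deleted uteri. Deleted replicate 1 was above all controls, replicate 2 within their range and replicate 3 below it. On the log2 scale the change was 0.26 (95% interval -0.37 to 0.89; limma adjusted p 0.947), -0.05 without deleted replicate 1 and 0.51 without deleted replicate 3. With array quality weights it was 0.76 (adjusted p 0.0646) and after a loess correction for length and GC content it was 0.04 (adjusted p 0.999).

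Fmod, Lum and Prelp form a second class, whose core proteins carry tyrosine sulfates or keratan sulfate chains. Fibromodulin binds type I collagen and takes part in its cross-linking. Fmod (ENSMUSG00000041559, chromosome 1, 134037254 to 134048277) had 9.26, 10.7 and 10.4 FPKM in controls and 5.87, 9.15 and 7.33 in deleted uteri. The groups did not overlap, although deleted replicate 2 was close to the lowest control. The deleted mean of 7.45 ± 1.64 was 73.6% of the control mean of 10.1 ± 0.777 (SD, n = 3). The log2 change was -0.41 (SE 0.16; limma unadjusted p 0.0343, adjusted p 0.922; exact permutation p = 0.1). It was -0.27 without deleted replicate 1. With array quality weights in limma it was -0.62 (adjusted p 0.043, against 0.173 to 1 under the other alternatives), a fit in which deleted replicate 1 had a weight of 3.74 and replicate 2 of 0.224. That fit called 316 of the 12640 genes tested (2.5%), and Fmod was the 1 member among them.

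Lumican, a keratan sulfate proteoglycan that regulates the assembly of collagen fibrils, was highest in deleted replicate 2. Lum (ENSMUSG00000036446, chromosome 10, 97565128 to 97572703) had 169.6, 134.8 and 148.5 FPKM in controls and 114.5, 231.2 and 89.0 in deleted uteri. Deleted replicate 2 was above every control and replicates 1 and 3 were below every control. The log2 change was -0.17 (95% interval -0.92 to 0.58; limma adjusted p 0.977). It was -0.57 without deleted replicate 2, 0.11 without deleted replicate 3, -0.07 without deleted replicate 1, -0.09 without control replicate 1, -0.41 with array quality weights and -0.32 with the GC content and length correction. The 6 libraries fell in the same order by Lum as by the summed proliferation genes. Lum was the 1 gene of the 9 with that order, noticed after the values were seen. Of the matrix partners described below, Col1a1, Col1a2, Col3a1 and Sparc had the same order, so it is not particular to Lum. Genes with this order were not counted over all genes tested. The part of proliferation in the level of Lum was not tested.

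Prelp, whose protein links basement membranes to the collagen network, was lowest in the deleted library where Lum was highest. Prelp (ENSMUSG00000041577, chromosome 1, 133910304 to 133921414) had 33.3, 45.7 and 48.4 FPKM in controls and 44.3, 20.8 and 62.4 in deleted uteri. Replicate 2 was the lowest of all libraries and replicate 3 the highest, while replicate 1 lay within the control range. The means of both groups were 42.5 (SD 8.02 for controls, 20.9 after deletion, n = 3). On the log2 scale Prelp differed by -0.11 (95% interval -0.97 to 0.74; limma adjusted p 0.989), the widest interval of the 9 genes. It was 0.32 without deleted replicate 2, -0.45 without deleted replicate 3, -0.21 without deleted replicate 1 and -0.27, -0.05 and -0.01 without control replicates 1, 2 and 3. With array quality weights it was 0.13.

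Osteoglycin is a small keratan sulfate proteoglycan of another class. Ogn (ENSMUSG00000021390, chromosome 13, 49608046 to 49624501) had 52.5, 78.9 and 59.4 FPKM in controls and 132.7, 60.8 and 54.5 in deleted uteri. Deleted replicate 1 was above all controls, and replicates 2 and 3 were within the control range. The log2 change was 0.28 (95% interval -0.49 to 1.05; limma adjusted p 0.953), and -0.12 without deleted replicate 1. It was 0.51 without deleted replicate 3, 0.44 without deleted replicate 2 or control replicate 2 and 0.15 without control replicate 1. With array quality weights it was 0.93 (adjusted p 0.0664) and with the GC content and length correction 0.08 (adjusted p 0.999). Podocan binds type I collagen and is known to restrain growth of smooth muscle cells. Podn (ENSMUSG00000028600, chromosome 4, 108014791 to 108096445) had 4.97, 4.42 and 5.82 FPKM in controls and 4.77, 4.04 and 5.25 in deleted uteri. It had the smallest range of the 9 genes, with the highest library at 1.44 times the lowest. Its log2 change was -0.09 (95% interval -0.43 to 0.25; limma adjusted p 0.97). It was -0.17 without control replicate 2, -0.16 without deleted replicate 3, -0.01 without deleted replicate 2, -0.0 without control replicate 3, -0.06 with array quality weights and -0.03 with the GC content and length correction. The Podn gene model overlaps Scp2 on the same strand, so reads in the shared stretch are uncertain.

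Versican, the hyaluronan-binding member, had the highest mean change. Vcan (ENSMUSG00000021614, chromosome 13, 89655312 to 89742509) had 14.9, 15.3 and 12.3 FPKM in controls and 16.9, 32.6 and 13.2 in deleted uteri. Deleted replicate 2 was 2.64 times the lowest library, replicate 1 was just above the controls and replicate 3 was within their range. The deleted mean of 20.9 ± 10.3 was 147.4% of the control mean of 14.2 ± 1.59 (SD, n = 3). Vcan differed by 0.43 on the log2 scale (95% interval -0.26 to 1.12; limma adjusted p 0.924). It was 0.07 without deleted replicate 2, 0.7 without deleted replicate 3 and 0.24 with array quality weights. Versican has splice forms that differ in their glycosaminoglycan-bearing parts, and gene-level values do not separate them.

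The deleted libraries thus differed from each other more than the controls did. The standard deviation of log2(FPKM + 1) was larger among deleted libraries for 8 of the 9 genes, against 73.9% of all genes tested. The median ratio of deleted to control standard deviation was 2.8 for the 9 genes and 1.73 for all genes tested. Without deleted replicate 2 these medians were 1.53 and 1.05, and the standard deviation was larger among deleted libraries for 6 of the 9 genes and 6564 of the 12640 tested. Deleted replicate 1 had 4 genes above the control range (Dcn, Ogn, Aspn, Vcan) and 3 below it (Bgn, Lum, Fmod). Replicate 2 had 2 above (Lum, Vcan) and 5 below (Bgn, Dcn, Fmod, Prelp, Podn). Replicate 3 had 2 above (Dcn, Prelp) and 4 below (Bgn, Lum, Fmod, Aspn). Of all genes tested, 34.2%, 38.4% and 34.0% were above the control range in deleted replicates 1, 2 and 3, and 31.9%, 33.1% and 25.5% were below it.

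As a description over the 6 libraries, the other member most like each gene was found from Pearson correlations of log2(FPKM + 1), which include any difference between the groups. Ogn and Aspn had the highest correlation (r = 0.97), followed by Dcn and Prelp (0.91), Bgn and Fmod (0.78), Podn and Dcn (0.74) and Lum and Vcan (0.71), the closest member being given for each of the 9. Dcn was least like Vcan (r = -0.94), and Prelp was least like Lum (-0.93). Because the members differed in this way, their mean pattern after scaling was nearly flat, from -0.36 in deleted replicate 3 to 0.35 in control replicate 3. The 5 genes most like that mean were Tmem45b and Dusp11 (r = 0.956 each), Fignl2 (0.951), Npepl1 (0.94) and Sema3d (0.936), again over 6 libraries. They were picked as the highest over all other genes tested, which with 6 libraries favours high values, and their likeness was not tested.

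The make-up of the proteoglycan transcripts followed the same division. Dcn was 68.721%, 68.24% and 68.417% of the summed FPKM of the 9 genes in controls, a range of under 1 percentage point. In deleted uteri it was 70.433%, 54.564% and 76.133%. Lum made up 10.937%, 8.904% and 9.114% in controls and 6.956%, 19.538% and 5.658% in deleted uteri. Bgn made up 12.36%, 11.869% and 13.483% in controls and 9.009%, 14.195% and 8.605% in deleted uteri, so the Bgn groups overlapped as shares. No share of the 9 separated the groups with Dcn in the sum, and the smallest exact two-sided permutation p was 0.4. Because Dcn dominates the sum, shares were also taken over the other 8 genes. Bgn then made up 39.5%, 37.4% and 42.7% in controls and 30.5%, 31.2% and 36.1% in deleted uteri, lower without overlap (exact two-sided permutation p = 0.1, the smallest possible). Vcan made up 3.07%, 3.18% and 2.4% in controls and 3.47%, 6.07% and 3.5% in deleted uteri, higher without overlap (exact two-sided permutation p = 0.1). The other 6 shares overlapped. The ratio of Dcn to Lum was 6.28 to 7.66 in controls and 10.1, 2.79 and 13.5 in deleted replicates 1, 2 and 3.

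**Figure D3:**
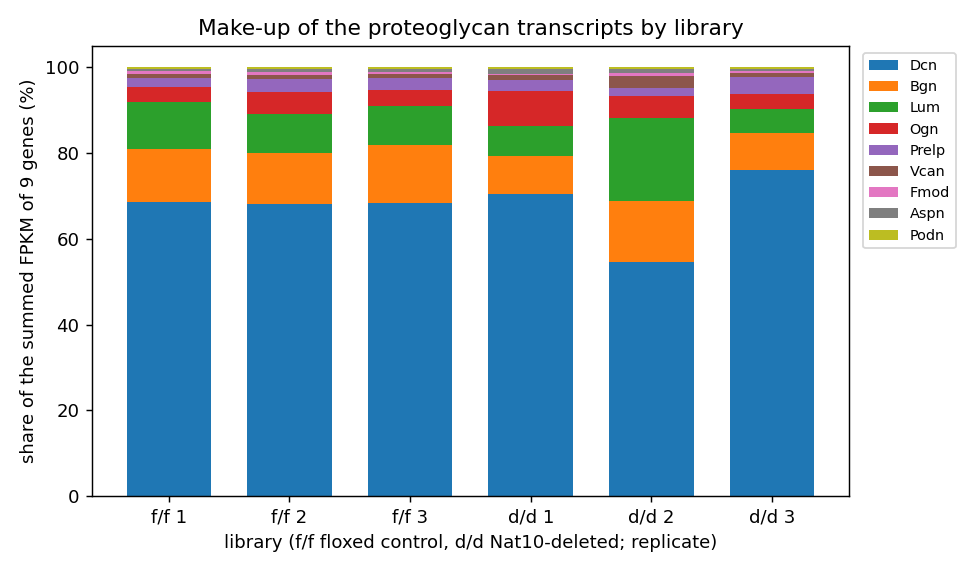
Share of the summed FPKM of the 9 genes (vertical axis, percent) in each of the 6 libraries, stacked by gene. The 3 control bars are nearly alike, with Dcn between 68.24% and 68.721%, while Nat10-deleted replicate 2 has less Dcn (54.564%) and more Lum (19.538%).

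Several of the genes lie next to each other. Dcn and Lum are 47 kb apart on chromosome 10, and deleted replicate 2 was the lowest library for Dcn and the highest for Lum. Prelp and Fmod are 115.8 kb apart on chromosome 1, with Optc, an opticin gene of the same family, 2.3 kb from Prelp. The ratio of Prelp to Fmod was 3.6 to 4.66 in controls and 7.55, 2.27 and 8.51 in deleted uteri. On chromosome 13 Ecm2, Aspn, Omd and Ogn follow one another, and Aspn and Ogn kept nearly constant proportions. Their ratio was 5.95, 6.96 and 5.88 in controls and 6.83, 5.49 and 6.51 in deleted uteri, although deleted replicate 1 was far above all controls for either gene. Ecm2, 11.7 kb from Aspn, did not share this pattern, with 14.8 FPKM in deleted replicate 1, within the control range of 13.3 to 15.9, and 7.33 in replicate 2. Prelp and Vcan overlap annotated antisense genes (Gm15851 and Gm4117) that were not analysed here. Both Aspn and Ogn lie inside Cenpp on its opposite strand. Cenpp had 2.07, 9.37 and 1.2 FPKM in deleted replicates 1, 2 and 3 and 0.766 to 3.43 in controls. The part of Cenpp reads in the values of Aspn and Ogn was not tested. Beside the high Aspn and Ogn of deleted replicate 1, the 6 cartilage and tendon markers summed to 22.6 FPKM there, 20.6 and 15.0 in deleted replicates 2 and 3 and 12.7 to 17.0 in controls. Nearly all of this was Scx, a tendon transcription factor that was the 1 marker of the list to pass the filter. Tnmd was listed at 0 in every library. The part of such cells in these values was not tested.

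**Figure D4:**
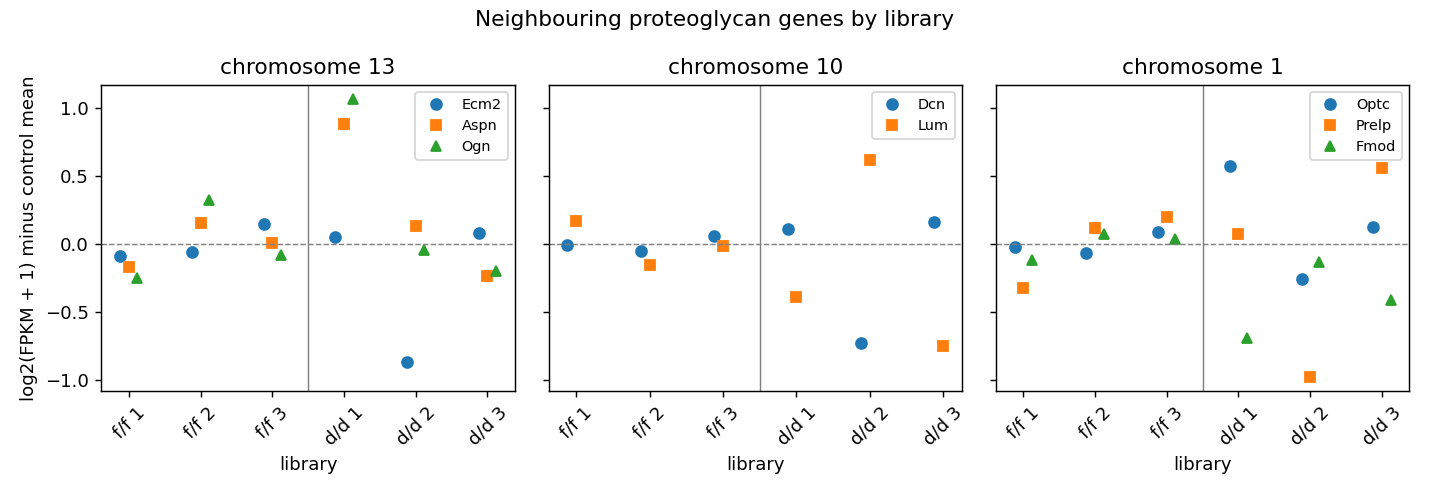
Deviation of log2(FPKM + 1) from the control mean (vertical axis) in each library (horizontal axis) for proteoglycan genes that neighbour each other on chromosomes 13, 10 and 1. Aspn and Ogn lie together in all 6 libraries and are highest in Nat10-deleted replicate 1, whereas Dcn and Lum separate in opposite directions in Nat10-deleted replicate 2.

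Because stromal fibroblasts are known to make these proteoglycans, the genes were set beside 15 stroma markers. All 15 had a lower mean in deleted uteri, with a median log2 change of -0.33, none passing the threshold (limma). At an unadjusted p under 0.05 there were 6, against 2.3% of all genes tested as lower. Without overlap 5 were lower, against 4.6% of all genes tested. The median deviation of these markers from the control mean was -0.39, -0.21 and -0.37 in deleted replicates 1, 2 and 3. In bulk tissue, fewer cells of a type and less RNA per cell cannot be told apart. Relative to the stroma median of the same library, Bgn was 1.13, 1.25 and 1.5 log2 units higher in controls and 1.11, 1.34 and 0.84 in deleted uteri. These groups overlapped, with a difference of -0.2 (exact two-sided permutation p = 0.4). It was -0.07 without deleted replicate 3, -0.09 without control replicate 3 and -0.32 without deleted replicate 2. For Fmod the difference relative to stroma was -0.22 (exact permutation p = 0.3), also with overlap. It was -0.1 without deleted replicate 1, -0.14 without control replicate 2, -0.34 without control replicate 1 and -0.4 without deleted replicate 2. With smooth muscle markers as the reference in place of stroma, the differences were -0.45 for Bgn and -0.48 for Fmod. The Vcan difference relative to stroma was 0.62 (exact permutation p = 0.2), but 0.22 without deleted replicate 2, 0.94 without deleted replicate 3 and 0.37 with smooth muscle as the reference. For Ogn it was 0.47 (exact permutation p = 0.5) and for Aspn 0.45 (exact permutation p = 0.4), and the remaining members differed by 0.02 to 0.1. No member separated the groups relative to stroma. Smooth muscle markers, the other main tissue of the uterus, differed by a median of -0.03 on the log2 scale (10 genes), with 4 higher and 6 lower. Epithelium markers had a median of 0.09, with 7 higher and 5 lower. Of these 12, 4 were higher and 1 was lower without overlap, against 6.12% and 4.6% of all genes tested. At an unadjusted limma p under 0.05, 3 were higher and 1 was lower, against 2.68% and 2.3% of all genes tested, and none passed the threshold. The epithelium markers summed to 903.1 to 983.7 FPKM in controls and 993.9, 866.1 and 1181.4 in deleted replicates 1, 2 and 3. The part of tissue make-up in the values of the 9 genes was not tested.

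The collagens and other matrix proteins that these proteoglycans bind were compared next. All 19 had a lower mean in deleted uteri, with a median log2 change of -0.37 beside 0.03 for all genes tested. None passed the threshold in limma. At an unadjusted p under 0.05 there were 5, against 2.3% of all genes tested as lower, and 4 were lower without overlap, against 4.6%. Fbln1 (fibulin 1, an elastic fibre and basement membrane protein) had the smallest p, with 148.4 ± 30 FPKM for controls against 100.2 ± 0.845 after deletion (SD, n = 3), a log2 change of -0.54 with a limma adjusted p of 0.922. Eln (elastin) had a log2 change of -0.58 and Fbln2 (fibulin 2) of -0.47, both with a limma adjusted p of 0.922. Fn1 (fibronectin) had the lowest change of the list at -0.83 and Postn (periostin) the highest at -0.10. By library, 18 of the 19 were below the control range in deleted replicate 1 and 17 in replicate 3, but in replicate 2 only 5 were below it and 12 above it, beside the shares of all genes given above. Col1a1, a chain of type I collagen, had 765.3, 677.3 and 749.9 FPKM in controls and 393.7, 983.9 and 361.1 in deleted uteri. This order of the deleted libraries is that of Lum and the reverse of that of Dcn and Prelp.

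**Figure D5:**
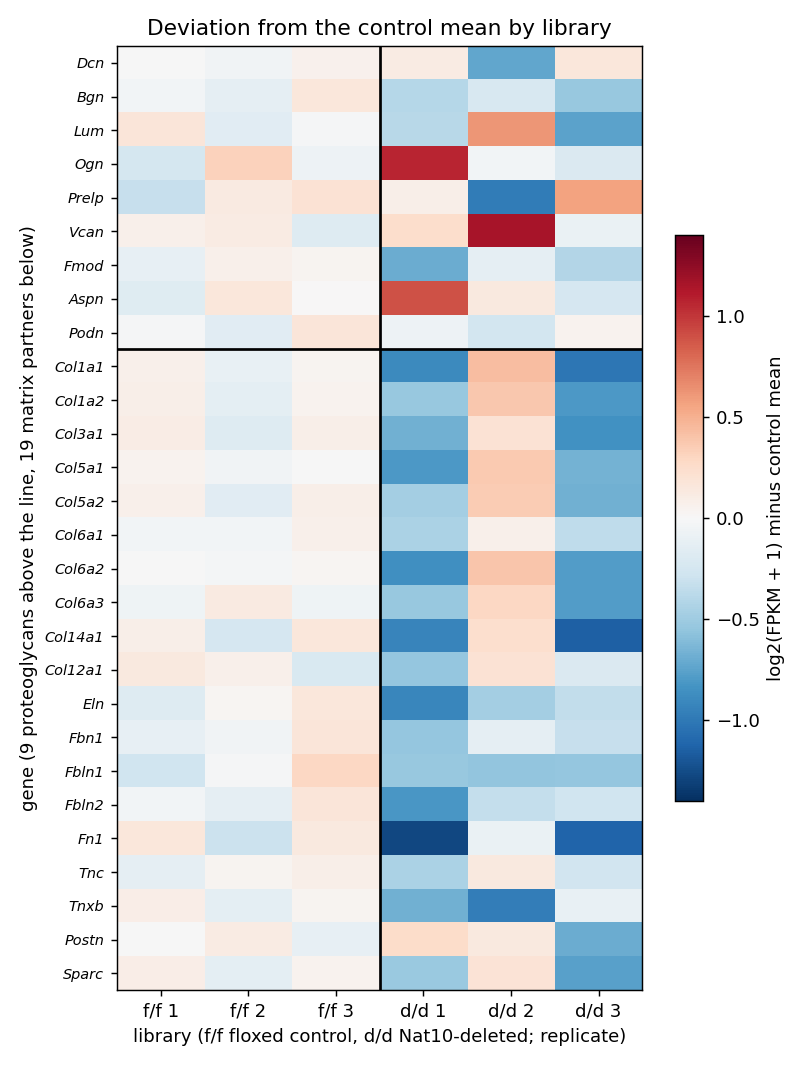
Deviation of log2(FPKM + 1) from the control mean (colour, red higher and blue lower) for the 9 proteoglycans (above the line) and 19 matrix partners (below it) in 6 libraries. Most matrix partners are blue in Nat10-deleted replicates 1 and 3 and red in replicate 2, a pattern seen for Lum, while Dcn and Prelp are blue in replicate 2.

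Other genes of the proteoglycan family were mostly at low levels. Of 17 other small leucine-rich and hyaluronan-binding proteoglycan and link protein genes, 5 passed the filter (Tsku, Ecm2, Hapln1, Optc and Chadl), 3 with a higher and 2 with a lower mean and none with a p under 0.05, adjusted or not (limma). The smallest p were those of Tsku (tsukushi; log2 change 0.21), Ecm2 (-0.25) and Hapln1 (0.17), a link protein that fixes versican to hyaluronan. Of 17 tested basement membrane and cell surface proteoglycans, 8 were higher and 9 lower, with a median log2 change of -0.01. Gpc3 (glypican 3) had 71.6 ± 9.84 FPKM for controls against 55.5 ± 3.03 after deletion (SD, n = 3) and a log2 change of -0.35. Hspg2 (perlecan) had 71.1 ± 0.364 and 55.9 ± 9.03 FPKM and a change of -0.36. Both were lower without overlap (limma adjusted p 0.922), and Col18a1 followed at -0.39 with overlap.

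Genes that build the glycosaminoglycan chains differed by a median of -0.02 on the log2 scale (30 tested), 13 higher and 17 lower. At an unadjusted limma p under 0.05 there were 3, against 4.98% of all genes tested. Slc35d1, which carries nucleotide sugars into the secretory pathway, had a log2 change of 0.34 without overlap. The sulfate transporter Slc26a2 (-0.35) and the chondroitin polymerising factor Chpf (-0.44) were lower without overlap. None passed the threshold (limma adjusted p 0.922 for all 3). Of 11 tested genes of hyaluronan synthesis, binding and turnover, 3 were higher and 8 lower. Has2, a hyaluronan synthase, had 1.25, 1.54 and 0.995 FPKM in controls and 2.12, 2.72 and 1.92 in deleted uteri, a log2 change of 0.52 (limma adjusted p 0.922). All deleted libraries were above all controls. Stab1, a scavenger receptor for hyaluronan on macrophages and endothelium, was lower without overlap (log2 change -0.59), and Hyal1, a hyaluronidase, had a change of -0.16.

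Among 14 tested proteases that process these proteins, and their enhancers, 5 were higher and 9 lower, with a median log2 change of -0.18. Htra1, a serine protease that can degrade decorin, biglycan and fibromodulin, had 85.1, 76.2 and 99.2 FPKM in controls and 57.6, 57.4 and 60.0 in deleted uteri. All deleted libraries were below all controls, with a log2 change of -0.56 (SE 0.12; limma adjusted p 0.838). Adamts5, which cleaves versican, had a log2 change of -0.31 without overlap, and Pcolce2, an enhancer of procollagen processing, of -0.46 with overlap (limma adjusted p 0.922 for both). Of 18 tested growth factors and receptors known to bind or answer to these proteoglycans, 5 were higher and 13 lower, with a median of -0.15. Kdr, a VEGF receptor bound by decorin, had 27.6 ± 0.413 FPKM for controls against 19.6 ± 1.04 after deletion (SD, n = 3), a log2 change of -0.47 with a limma adjusted p of 0.806. Tgfb3 had 32 ± 2.32 and 22.4 ± 2.47 FPKM (log2 change -0.50) and Tgfbr2 a log2 change of -0.28, both lower without overlap and with a limma adjusted p of 0.922. Kdr is also an endothelial marker, and all 8 endothelium markers had a lower mean in deleted uteri (median log2 change -0.25). In deleted replicates 1, 2 and 3, 6, 6 and 5 of them were below the control range, against 31.9%, 33.1% and 25.5% of all genes tested. The part of endothelial cells in the values of Kdr and Stab1 was not tested.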

How the data were processed

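The data are bulk poly(A) RNA-seq of whole mouse uterus, 3 floxed control and 3 Nat10-deleted libraries, with RNA extracted by TRIzol and libraries made with a TruSeq RNA kit, per the labels' protocols. Each deposited table gives 1 FPKM value per gene, a unit inferred from the values and from the tools, since no header names it. The submitters' processing notes list HISAT2 2.2.1, Cufflinks 2.2.1 and mm10, and the annotation, filters and strand setting are not given in the sources used here. Without strand, reads of overlapping or antisense genes cannot be told apart.

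Groups were read from the titles. Genes at 1 FPKM or more in at least 3 libraries (12640 of 20637) were analysed as log2(FPKM + 1) with limma 3.58.1 in R 4.3.3 (eBayes with trend, group as the only term), two-sided, adjusted by Benjamini-Hochberg over all of them. The provision for a count test was not used because the values are not counts. Fold changes on this scale understate changes of low genes. Shares and levels relative to stroma were compared by exact permutation over libraries (Python 3.11.15). Of the identifiers, 99.62% matched GENCODE release M21, which gave coordinates, GC content and transcript length. The fit was tested on simulated data, in 20 runs with 200 genes changed by 1.5 on the log2 scale and equal spread in both groups. It recovered 95.9% of these, and 5.12% of calls were false. Changes as small as those of the members, and unequal spread, were not simulated.

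The members, lists and tests were chosen with earlier results of these data known. The genes named are the 9 members, the 3 members of each further list with the smallest p, the highest and lowest of the matrix partners, neighbours on the chromosome and the 5 genes most like the mean pattern. Col1a1, Col1a2, Col3a1, Sparc, Cenpp and Scx were added after their values were seen. Of the 256 listed symbols 254 were found, and the other 2 are not analysed here. No 2 libraries were identical. Alternatives were 3 scalings, 2 filters, another pseudocount, 3 changes of the variance model, a correction for GC content and length, a block for the replicate number and the removal of each library in turn.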

Additional observations from a re-analysis of the deposited data

How the results depend on the processing

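The count of genes passing the threshold was 0 under every alternative other than array quality weights, which gave 316, and leaving out 1 library, where it ran from 0 to 12. Removing Nat10-deleted replicate 2 gave the 12. Genes with an unadjusted p under 0.05 in limma numbered 630 as reported, 3730 with array quality weights and 1726 once that replicate was removed. Removing Nat10-deleted replicate 3 gave 1403, Nat10-deleted replicate 1 352, and control replicates 1, 2 and 3 359, 472 and 353. Of the 630, 339 were higher and 291 lower, but quantile normalization gave 259 higher and 414 lower, centring on the median 248 higher and 376 lower, and scaling to the upper quartile 232 higher and 399 lower. Bgn and Fmod had a lower mean under all 17 alternatives, with a log2 change of -0.47 to -0.31 and of -0.55 to -0.27 when 1 library was left out.

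With array quality weights the changes were 0.08 for Dcn, 0.13 for Prelp, -0.41 for Lum, 0.93 for Ogn, 0.76 for Aspn and 0.24 for Vcan. The GC content and length correction gave 0.08 for Ogn and 0.04 for Aspn. Leaving out 1 library, log2 changes ran from -0.31 to 0.14 for Dcn, -0.57 to 0.11 for Lum, -0.12 to 0.51 for Ogn, -0.45 to 0.32 for Prelp, -0.05 to 0.51 for Aspn, -0.17 to -0.0 for Podn and 0.07 to 0.7 for Vcan. The differences relative to stroma ran from -0.11 to 0.29 for Dcn, -0.42 to 0.36 for Lum, -0.21 to 0.47 for Prelp, -0.32 to -0.07 for Bgn, -0.4 to -0.1 for Fmod and 0.22 to 0.94 for Vcan. For Ogn they ran from 0.06 to 0.76, for Aspn from 0.12 to 0.75 and for Podn from 0.03 to 0.21. With smooth muscle markers in place of stroma the differences were -0.22 for Dcn, -0.24 for Lum, -0.18 for Prelp, -0.16 for Podn, -0.45 for Bgn, -0.48 for Fmod and 0.37 for Vcan. They were 0.21 for Ogn and 0.19 for Aspn. The differences in share, in percentage points, ran from -5.96 to 4.82 for Dcn, -3.35 to 3.59 for Lum, -0.49 to 0.62 for Prelp and -0.02 to 0.02 for Podn. For the other members they kept their sign, from -3.76 to -0.97 for Bgn, -0.24 to -0.03 for Fmod, 0.22 to 2.52 for Ogn, 0.09 to 0.41 for Aspn and 0.02 to 0.98 for Vcan. Without Dcn in the sum they were -7.27 for Bgn, 4.78 for Ogn, 1.47 for Vcan, -0.54 for Lum and 0.02 for Podn. The cause of these shifts was not tested.

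The labels state no pairing of libraries by replicate number. Deviations of same-numbered libraries from their group means correlated at -0.341, -0.029 and 0.1, and those of other pairs at -0.244 to 0.273. With 3 libraries per group, such values cannot decide whether the libraries were paired. With the replicate number as a block, limma called 0 genes (726 at an unadjusted p under 0.05) and no member changed direction or passed the threshold. Absolute depth is unknown, so no counting error can be given.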
